A study of Mus musculus with 8 samples.

Results

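DNA methylation in mammals is written on cytosines of CpG dinucleotides by the DNA methyltransferases and is removed by way of oxidation by the Tet enzymes. Dnmt1, brought to newly replicated DNA by Uhrf1, copies the methylation pattern of the parental strand at each division, whereas Dnmt3a and Dnmt3b set new marks. Tet1, Tet2 and Tet3 oxidise 5-methylcytosine to 5-hydroxymethylcytosine and beyond, after which base excision repair or replication restores the unmethylated base. Dnmt3a and Tet2 are well known as regulators of hematopoietic stem cell self-renewal, and Tet2 and Tet3 act during B cell development.

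The 7 genes Dnmt1, Dnmt3a, Dnmt3b, Uhrf1, Tet1, Tet2 and Tet3 were taken by name out of 26100 genes with a symbol in the pre-B tables and 17769 genes with an annotated peak in the LSK tables. All 7 were found in both. The study compared mice that lack the C terminus of Dido3 in blood cells (Dido1∆E16, genotype Dido1flE16/∆E16;R26R-EYFP;iCreVav1) with littermates Dido1flE16/+;R26R-EYFP;iCreVav1, called WT. The WT mice thus carried the Cre and the reporter as well, with 1 floxed and 1 intact Dido1 allele. Cre was driven by the Vav1 promoter, which is active throughout the hematopoietic system. The floxed allele was therefore open to deletion in WT blood cells too, and the study describes these controls as heterozygous. The animals were 6 to 10 weeks old. Chromatin accessibility was measured by ATAC-seq, in which a transposase inserts adapters into open DNA, on sorted LSK cells (lineage negative, Sca1+, cKit+ bone marrow progenitors), and RNA-seq was done on pre-B cells sorted from bone marrow, pooled from 2 to 3 mice a library. Both assays had 2 WT and 2 Dido1∆E16 libraries.

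RNA levels are in TPM, a length-corrected share of the RNA of a library, summed here over the transcripts of a gene. The coverage listed in the 4 RNA files summed to 1121 to 1635 megabases per library. The LSK libraries held 10249256 to 52050898 tags and 13208 to 57739 MACS2 peaks, and WT replicate 2 had the most of both. Peak number did not follow tag number between genotypes. The fewest tags were those of WT replicate 1, where 27352 peaks were called. Fewer peaks came from more tags in Dido1∆E16: 13208 from 22533077 (replicate 1), 16329 from 44633938 (replicate 2). As a check of the labels, the last exon of the long Dido1 transcript (chr2:180657963-180662583, GRCm38), which the mutation removes, had a scaled coverage of 24.6 (WT replicate 1), 21.8 (WT replicate 2), 0.295 (Dido1∆E16 replicate 1) and 0.0843 (Dido1∆E16 replicate 2). The pre-B marker list (10 genes) was detected in full, with summed TPM of 15520 to 18897 per library. Genes of neutrophils and monocytes summed to 229 TPM in WT replicate 1, 1987 in WT replicate 2, 970 in Dido1∆E16 replicate 1 and 8634 in Dido1∆E16 replicate 2, and erythroid genes to 301, 922, 677 and 8641 TPM in the same order. Mature B cell genes (5 genes) summed to 1237 and 1138 TPM in WT and to 884 and 978 TPM in Dido1∆E16, lower in both Dido1∆E16 libraries. Plasma cell genes summed to 224 to 280 TPM and genes of T and NK cells to 3.58 to 23.6 TPM, and no gene of any marker list was called. Across the 5′ ends of 1098 long transcripts the coverage relative to the rest of the transcript had medians of 0.421 and 0.454 in WT against 0.583 and 0.651 in the Dido1∆E16 libraries, and 71.9% of these transcripts had a higher ratio in both Dido1∆E16 libraries. The part of these differences between libraries in the values below was not tested, except where a value is given. In the LSK libraries, 5 of the 6 progenitor markers examined (Kit, Cd34, Flt3, Meis1 and Hlf) had a MACS2 peak in every library, and Ly6a, which encodes Sca1, had 1 only in WT replicate 2.

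The first question was whether the RNA of the methylation genes differed between WT and Dido1∆E16 pre-B cells. It did not pass the test for any of the 7: limma on log2(TPM + 1) called 0 of 7, against 6 of 11847 genes tested overall (0.0506%). All 7 passed the filter of a mean of 1 TPM. The test also found 1 of 7 at an unadjusted p under 0.05 (Dnmt3a), against 11.7% of all genes tested. In levels per length, Uhrf1 and Dnmt1 were the most abundant, Dnmt3a and Tet3 followed, then Tet2 and Dnmt3b, and Tet1 was lowest in the 3 libraries with a Dnmt3b value (Dnmt3b was listed at 0 in WT replicate 2). Uhrf1 stood above Dnmt1 within every library (TPM ratio 1.17, 1.24, 1.2 and 1.09). Dnmt3a stood below Dnmt1 within every library (ratio 0.231, 0.833, 0.524 and 0.449) and above Tet3 (1.26, 1.41, 1.91 and 1.96). Tet2 and Dnmt3b changed order between libraries. Together with Dnmt1, Uhrf1 made up most of the summed TPM of the 7 genes (43.1% and 36.7% in WT replicate 1, 30.5% and 24.7% in WT replicate 2).

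**Figure D1:**
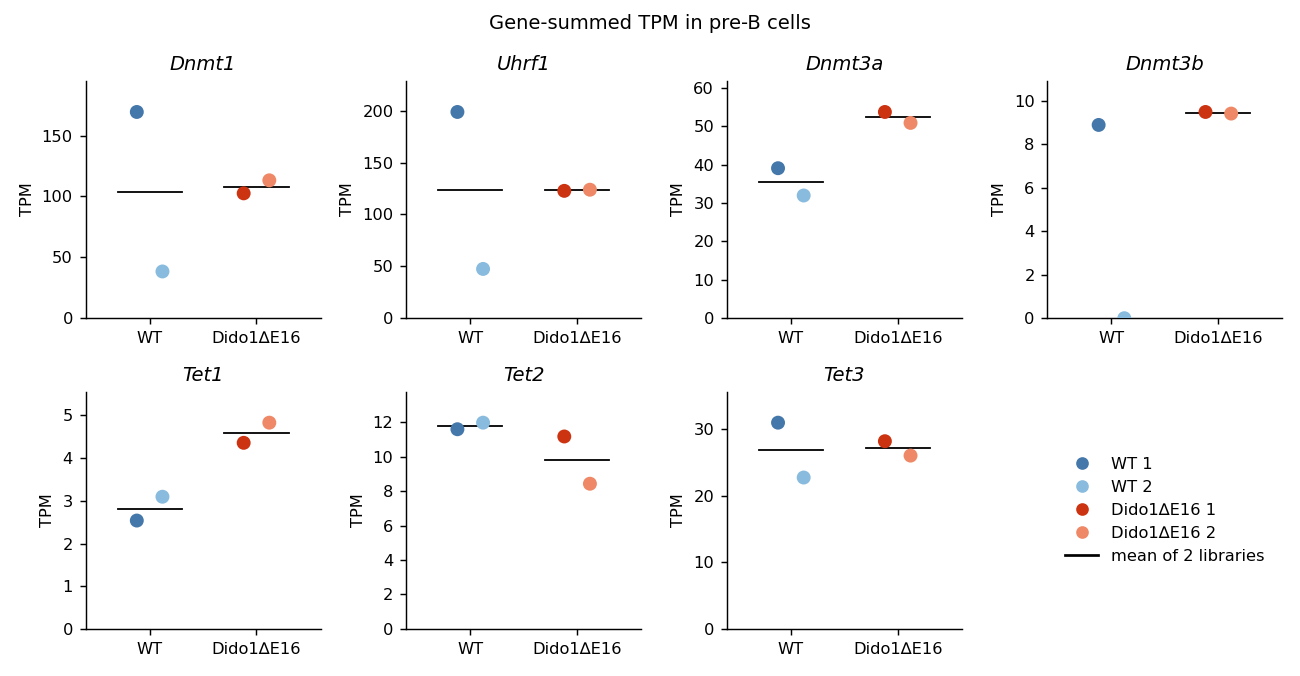
Gene-summed TPM of the 7 genes in pre-B cells (vertical axes, each from 0), with each point a library and each line the mean of 2 libraries (no line for Dnmt3b in WT, which was listed at 0 in WT replicate 2). Dnmt1 and Uhrf1 spread from 38.4 to 169 and from 47.5 to 199 TPM between the WT libraries, and the Dido1∆E16 libraries lay between them.

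The maintenance pair, Dnmt1 and Uhrf1, differed widely between the WT libraries. Dnmt1, the maintenance methyltransferase (main transcript chr9:20907206-20952623, minus strand), was at 169 TPM in WT replicate 1, 38.4 in WT replicate 2, 103 in Dido1∆E16 replicate 1 and 113 in Dido1∆E16 replicate 2. Both Dido1∆E16 values therefore fell inside the WT range. Group means were 104 ± 92.6 TPM in WT and 108 ± 7.56 in Dido1∆E16 (SD, n = 2 each), with a log2 difference of 0.41 ± 0.74 (SE, adjusted p = 0.876). Uhrf1, which recognises hemimethylated CpG and recruits Dnmt1 (chr17:56303337-56323486, plus strand), had 199, 47.5, 123 and 124 TPM in the same order of libraries. Its log2 difference was 0.34 ± 0.71 (SE, adjusted p = 0.893). The sign of both differences depended on a single WT library. Without WT replicate 2 they were -0.65 for Dnmt1 and -0.68 for Uhrf1, and without WT replicate 1 they were 1.47 and 1.36.

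The difference between the WT libraries was 2.11 on the log2 scale for Dnmt1 and 2.04 for Uhrf1, and 3.05% and 3.19% of the genes tested had a larger one in that direction. Genes of dividing cells moved with it. The 10 genes of the cycling list summed to 1993 and 413 TPM in WT, against 1054 and 1205 TPM in Dido1∆E16, with a median WT difference of 2.15. Mki67, the proliferation antigen, was at 228, 25, 86.3 and 139 TPM in the order above, and Top2a, the topoisomerase of dividing cells, at 503, 45.7, 189 and 255 TPM. No gene of this list was called, its median log2 difference between genotypes was 0.30 beside 0.07 for all genes tested, and all 10 estimates were above 0. In all 10 genes, however, the Dido1∆E16 values lay between the WT values, so 0 of 10 were higher in both Dido1∆E16 libraries. Relative to Pcna, the replication clamp (320, 132, 203 and 201 TPM), Dnmt1 stood at 0.530, 0.290, 0.504 and 0.563. The low value of WT replicate 2 thus remained in the ratio to this gene. Pcna itself differed by 1.27 on the log2 scale between the WT libraries. The Dnmt1 difference (2.11) was larger than that of Pcna and close to the median of the cycling list (2.15). In these bulk libraries fewer cells of a type and less RNA per cell cannot be told apart.

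**Figure D2:**
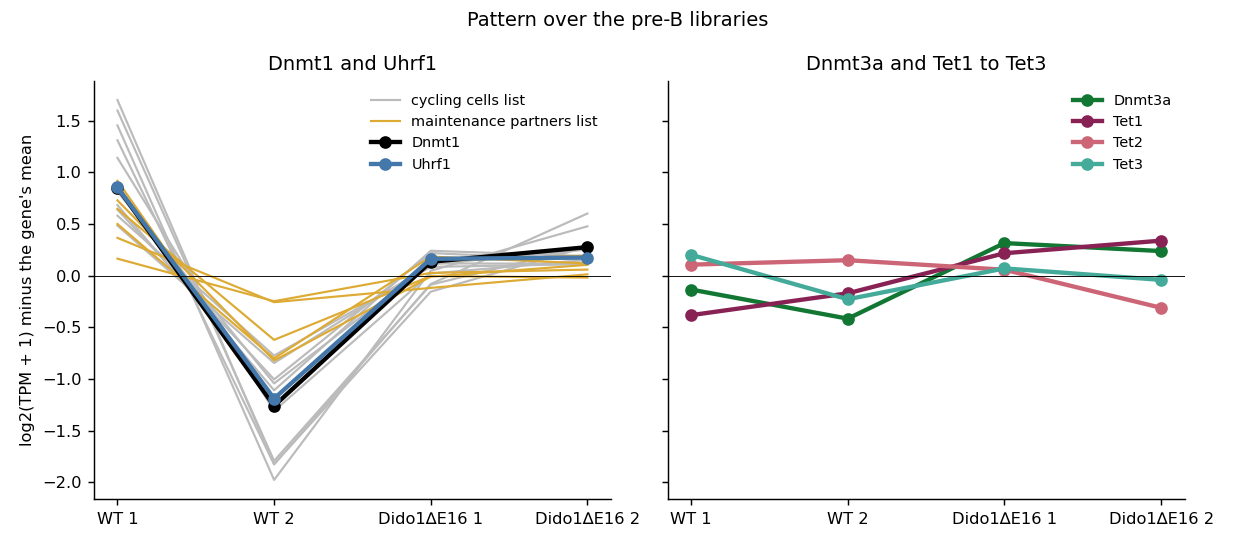
log2(TPM + 1) of each gene minus its mean over the 4 pre-B libraries (vertical axis) by library (horizontal axis), with lines joining the values of 1 gene. Dnmt1 and Uhrf1 lay with the cycling and maintenance lists, highest in WT replicate 1 and lowest in WT replicate 2, whereas Dnmt3a and Tet1 were higher in both Dido1∆E16 libraries and Tet2 lower.

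By the Euclidean distance of log2(TPM + 1), centred on the mean of each gene, over the 4 libraries, the genes most like Uhrf1 among 8689 compared were Lig1 (0.0936), the ligase that joins Okazaki fragments, Nsd2 (0.104), a histone H3 lysine 36 methyltransferase, and Rbl1 (0.123), a member of the retinoblastoma family. Dnmt1 was the nearest after these (rank 4, distance 0.126). Lig1 had 128, 27.8, 74.4 and 77.4 TPM, nearly the same profile. With only 4 libraries such distances describe 1 set of samples and rest mainly on the difference between the WT libraries.

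The promoters of this pair were examined for the letters of E2F-type sites, since E2F factors are the textbook regulators of genes of DNA replication. The words searched were TTTCCCGC, TTTCGCGC, TTTGCCGC and TTTGGCGC on both strands, in windows of 250 bases before to 50 after each RefSeq start (GRCm38.p6). All 7 genes had at least 1 of 12 windows. Words were found in 2 of the 12, those of Dnmt1 and Uhrf1, against 2.26% of all 32851 windows. Of the 2812 windows with at least 33 CpG, 4.27% held a word. That limit is the number of CpG in the 2 windows with a word and was taken from them. Windows of Tet2 (57 CpG) and Dnmt3a (46 and 47 CpG) also reached it and held none, whereas the rest of the 12 fell below it. The stretches are shown because they are the only such words among the 7 genes, with the word in capitals and each read on the strand of its gene. The Dnmt1 windows are chr9:20952824-20952853 and chr9:20952574-20952601 and the Uhrf1 window is chr17:56304117-56304146.
Dnmt1, word starting 219 bases before the start: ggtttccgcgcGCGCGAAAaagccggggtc
Dnmt1, word starting 33 bases after it: gcggggcagcgTTTGGCGCgggctgtgc
Uhrf1, word starting 185 bases before the inner start: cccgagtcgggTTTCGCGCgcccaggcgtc
The capitals of the upper Dnmt1 line are the reverse complement of TTTCGCGC, the word of Uhrf1. The match is one of letters and says nothing of binding, and the absence of these letters elsewhere says nothing of the factor. The start of Dnmt1 used here is that of its main transcript, and other annotated starts lie before it, at 20952979 on the same strand. The first exon from the start used here had a scaled coverage of 0.612 and 0 in WT and of 1.27 and 0 in Dido1∆E16. The next exon had 50.3 and 18.9 in WT and 45.6 and 69.6 in Dido1∆E16. The window of the start at 20952979 holds none of the words. The upper Dnmt1 stretch lies within the first exon from that start. The inner start of Uhrf1 is 56304313, whereas in 3 of 4 libraries all Uhrf1 TPM stood on the transcript from 56303337, and the window of that start holds none of the words.

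Of the de novo enzymes, Dnmt3a had more RNA in both Dido1∆E16 libraries, by an amount that did not pass the adjusted test. Dnmt3a (chr12:3806980-3914443, plus strand) was at 39.1 and 32.0 TPM in WT replicates 1 and 2, against 53.7 and 50.9 TPM in the Dido1∆E16 replicates. The groups did not overlap, as was the case, in this direction, for 27.2% of all genes tested. Means were 35.5 ± 5.02 and 52.3 ± 2.01 TPM (SD, n = 2 each). The log2 difference from limma was 0.55 ± 0.17 (SE, adjusted p = 0.360 over all genes). The difference stayed between 0.41 and 0.69 when each library was left out in turn. The sum of the pro-B and large pre-B cell markers lay in the same direction, and that of the mature B cell genes in the opposite one. The 6 genes of the pro-B and large pre-B list summed to 546 and 384 TPM in WT and to 2130 and 1410 TPM in Dido1∆E16. Of these, 4 of 6 were higher in both Dido1∆E16 libraries, beside 27.2% of all genes tested, and none was called. Il2ra (269, 268, 261 and 301 TPM) and Myc (6.66, 33.4, 23.1 and 14.2 TPM) overlapped between genotypes. Vpreb1, a chain of the surrogate light chain, had 108, 40.9, 1222 and 738 TPM (log2 difference 3.81 ± 0.55, adjusted p = 0.191). Kit had 1.63, 0.599, 9.74 and 9.06 TPM (2.34 ± 0.40, adjusted p = 0.217). The part of these markers in the Dnmt3a difference was not tested.

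The Dnmt3a reads were divided unevenly along the gene. Dnmt3a is transcribed from an outer start and from an inner start that gives a shorter protein without the N terminus. The files place 39.1, 31.9, 53.3 and 50.5 TPM on the long transcript and list the short transcript, which begins at 3891744, at 0 in all 4 libraries. The coverage by exon differs from that assignment. The 6 exons before the inner start (939 bases) had a scaled coverage of 3.76 and 3.41 in WT and of 11.1 and 12.2 in Dido1∆E16, and the 17 exons after it had 42.8 and 34.9 in WT and 57.8 and 54.6 in Dido1∆E16. In every library, then, the exons particular to the long form were covered at a small share of the level of the shared exons. That share was 0.0879 and 0.0977 in WT and 0.192 and 0.224 in Dido1∆E16, without overlap. The general rise of 5′ coverage in the Dido1∆E16 libraries ran in the same direction. Over the 5′ 10% of the long Dnmt3a transcript the ratio to the rest was 0.161, 0.182, 0.257 and 0.286, a fold of 1.58 between genotypes beside a median of 1.37, and 23.3% of the 1098 transcripts had a larger fold. The share of each start can therefore not be read from these files, and the exon values were chosen after they were seen.

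**Figure D3:**
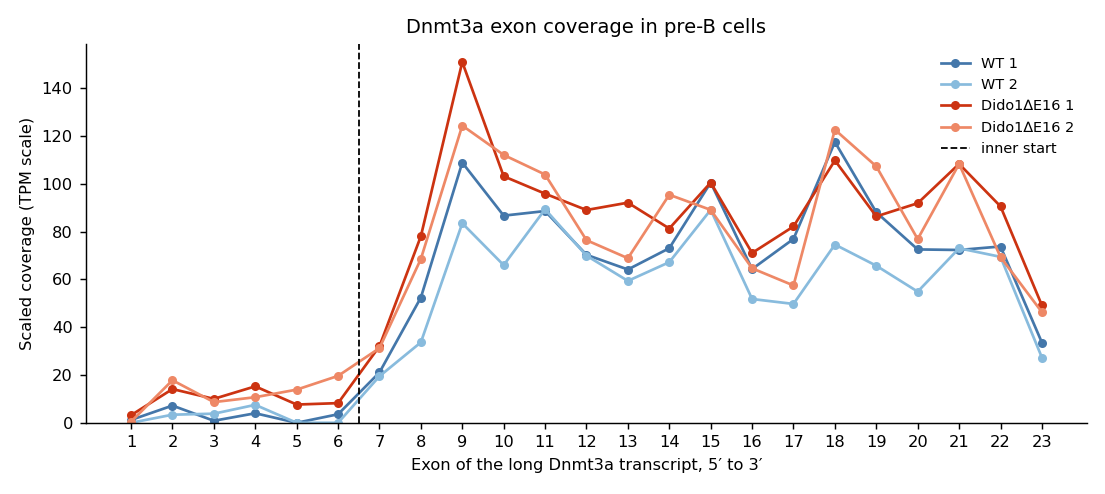
Scaled coverage (vertical axis, coverage multiplied to the TPM scale of its library) of the 23 exons of the long Dnmt3a transcript in 5′ to 3′ order (horizontal axis), with 1 line per library and the inner start dashed. The 6 exons to the left lay far below the others in all libraries, and above WT in both Dido1∆E16 libraries when averaged (11.1 and 12.2 against 3.76 and 3.41).

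Dnmt3b, the other de novo enzyme (chr2:153649449-153687730, plus strand), had 8.90 TPM in WT replicate 1, 9.49 in Dido1∆E16 replicate 1 and 9.42 in Dido1∆E16 replicate 2, and was listed at 0 in WT replicate 2. None of its 9 transcripts and none of the exons of the covered transcript had a value in that library. In WT replicate 2, 51 genes were listed at 0 while the other 3 libraries each had at least 8 TPM, compared with 19, 5 and 40 such genes in WT replicate 1 and Dido1∆E16 replicates 1 and 2, so a 0 may be a failed estimate. No fold is given for Dnmt3b (adjusted p = 0.662). The 3 libraries with a value differed by less than 1 TPM.

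Among the Tet enzymes, Tet3 and Tet2 carried most of the RNA and none was called. Tet3 (chr6:83362374-83456392, minus strand) was at 30.9, 22.7, 28.1 and 26.0 TPM, with the Dido1∆E16 values inside the WT range and a log2 difference of 0.03 ± 0.22 (SE, adjusted p = 0.970). Its sign was not stable (-0.0565 after median centring). Tet2 (chr3:133463677-133544390, minus strand) was at 11.6 and 12 TPM in WT and 11.2 and 8.43 TPM in Dido1∆E16. Both Dido1∆E16 values were below both WT values, as for 15.5% of all genes tested, and the log2 difference of -0.25 ± 0.24 (SE, adjusted p = 0.734) rested on Dido1∆E16 replicate 2, without which it was -0.07. Tet3 exceeded Tet2 by 2.67, 1.90, 2.52 and 3.08 times in the 4 libraries. The genes most like Tet3 in pattern were Fdxr (0.0149), a mitochondrial reductase, Cdk2ap1 (0.0211) and Ints11 (0.0274), a subunit of the Integrator complex.

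Tet1 was low, and its RNA did not reach the start of the transcript to which it was assigned. Tet1 (chr10:62804570-62880014, minus strand) had 2.54 and 3.10 TPM in WT and 4.36 and 4.83 TPM in Dido1∆E16, so both Dido1∆E16 libraries were above both WT libraries. The log2 difference was 0.55 ± 0.33 (SE, adjusted p = 0.616). The first exon of this transcript (chr10:62878152-62880014, 1863 bases) had a scaled coverage of 0, 0.153, 0 and 0, whereas the other 11 exons averaged 2.93, 3.54, 5.02 and 5.57. A shorter annotated Tet1 transcript begins within the gene, at 62865263, and was listed at 0 in all libraries. Counting Dnmt3a, Dnmt3b and Tet1, 3 of 7 genes were higher in both Dido1∆E16 libraries and 1 (Tet2) was lower, beside 27.2% and 15.5% of all genes, and the Dnmt3b order includes the value listed at 0.

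The assignment of reads to transcripts also varied for Uhrf1. In 3 libraries all of its TPM stood on the transcript from the upstream start, and in Dido1∆E16 replicate 2 the TPM was divided, with 47.6 on that transcript and 76.2 on the one that starts at 56304313. The sum (124 TPM) was close to that of Dido1∆E16 replicate 1 (123 TPM), which is why sums over transcripts are compared. On the upstream transcript alone the log2 difference was -0.34 ± 0.92 (SE, adjusted p = 0.930), of the opposite sign to that of the sum.

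The wider pathway was described by 7 lists of 44 genes, of which 41 were tested. None of the 41 was called in either direction, 22 estimates were above and 19 below 0, and their median log2 difference was 0.03 beside 0.07 for all genes tested. The readers of methylated CpG (9 tested) had 5 estimates above 0. Zbtb38, a reader of the zinc finger family, had 3.48, 4.94, 4.87 and 5.24 TPM. The partners of maintenance (6 tested) resembled the Dnmt1 pattern, with a median WT difference of 1.28 and, for Lig1, the values given above. Cdca7, an activator of the remodeller Hells, had 70.7, 28.1, 56.6 and 54.1 TPM.

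The partners of the de novo enzymes varied less. Of 5 tested, 3 estimates were above 0. Setd2, which writes histone H3 lysine 36 trimethylation, had 106, 103, 104 and 128 TPM. Ehmt2, a histone H3 lysine 9 methyltransferase, had 170, 136, 178 and 166 TPM. Dnmt3l, the catalytically inactive partner of Dnmt3a, was listed at 0 in all 4 libraries.

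The repair genes that follow Tet oxidation (7 tested) had 4 estimates above 0. Parp1, a sensor of strand breaks, was at 316 and 267 TPM in WT and 358 and 378 TPM in Dido1∆E16 (0.34 ± 0.14, adjusted p = 0.473). Apex1, the endonuclease of abasic sites, had 79.6, 117, 86.6 and 53.9 TPM. Both groups overlapped for Apex1 and not for Parp1.

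Cofactors and partners of Tet (4 tested) were divided, 2 above and 2 below 0. Idh1, which makes the 2-oxoglutarate that Tet enzymes consume, had 37.3, 16, 31.0 and 40.1 TPM. Cxxc5, a CXXC-domain protein, had 286 and 364 TPM in WT and 272 and 265 TPM in Dido1∆E16 (-0.26 ± 0.16, adjusted p = 0.629). Cxxc4 was listed at 0 throughout. In the methyl donor cycle, 3 of 5 genes were higher in both Dido1∆E16 libraries, among them Mtr, the methionine synthase (37.1, 27.0, 42.9 and 45.8 TPM, 0.47 ± 0.21, adjusted p = 0.510). Of the deaminases and Gadd45 genes, 4 of 5 estimates were below 0. Apobec1 had 349, 409, 344 and 308 TPM and Gadd45b had 53.4, 113, 90.6 and 48.3 TPM.

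The second question was whether the chromatin of the same genes was less open in Dido1∆E16 LSK cells. Each peak is an open region that MACS2 called in 1 library and that the annotation gave to the nearest gene. A region is called open below where a peak was called, and a region without a peak can still hold tags. Comparisons of 2 libraries with 2 cannot reach an exact permutation p below 0.333, so counts are given without a test. The 7 genes had 19 peaks in WT replicate 1, 46 in WT replicate 2, 13 in Dido1∆E16 replicate 1 and 12 in Dido1∆E16 replicate 2. Per 1000 peaks of the library these were 0.695, 0.797, 0.984 and 0.735, so the fall in number went with the number of peaks in all. By gene, Dnmt3a had 6 and 12 peaks in WT and 4 and 4 in Dido1∆E16, Tet2 had 7 and 23 against 5 and 2, and Tet3 had 3 and 5 against 2 and 2. These 3 of 7 genes had fewer peaks in both Dido1∆E16 libraries, beside 35.6% of the 17769 genes with a peak. Dnmt1 (1, 2, 1 and 1), Uhrf1 (1, 1, 1 and 2), Tet1 (1, 2, 0 and 1) and Dnmt3b (0, 1, 0 and 0) overlapped between genotypes.

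When the 13208 best-scoring peaks of each library were compared, 0 of 7 genes had fewer peaks in both Dido1∆E16 libraries, against 7.14% of 12886 genes. Dnmt3a then had 3, 3, 4 and 4 peaks, more in both Dido1∆E16 libraries. HOMER peaks also gave 0 of 7, against 3568 of 18321 genes with a HOMER peak. They numbered 7, 12, 5 and 14 for Dnmt3a and 7, 32, 7 and 4 for Tet2. With the better-scoring 50% of each MACS2 list, 2 of 7 genes (Dnmt3a and Tet3) had fewer, beside 3952 of 14308 genes with such a peak.

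**Figure D4:**
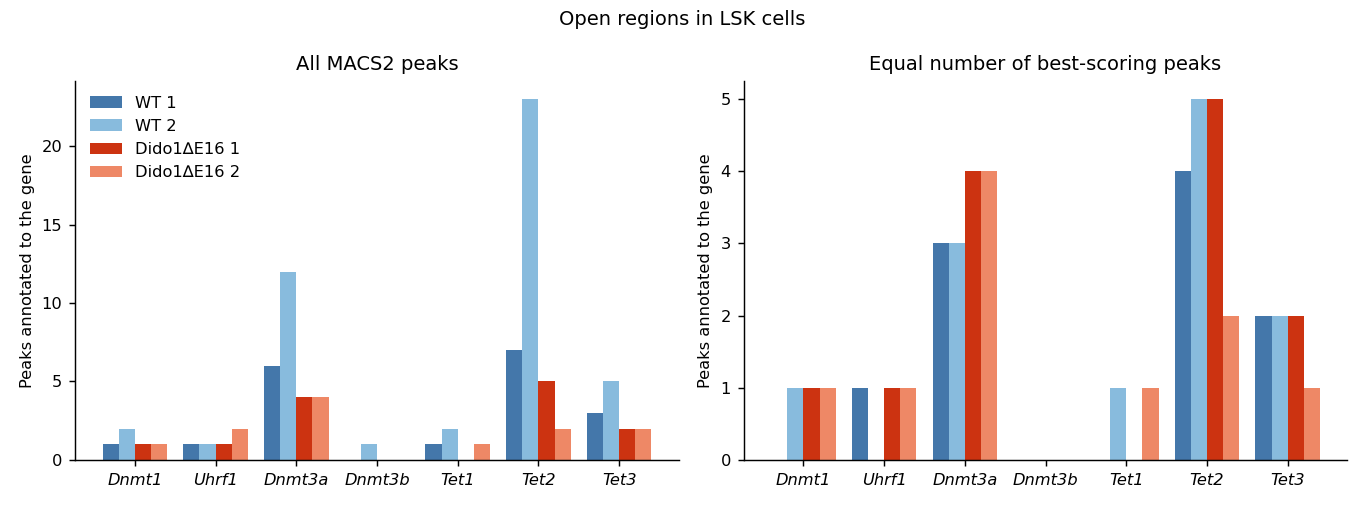
Number of MACS2 peaks annotated to each of the 7 genes in the 4 LSK libraries (bars), over all peaks (left) and over the 13208 best-scoring peaks of each library (right). WT replicate 2 had 12 peaks at Dnmt3a and 23 at Tet2 on the left, and on the right no gene had fewer peaks in both Dido1∆E16 libraries.

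Overlapping peaks were merged into 47 loci. Of these, 7 were open in all 4 libraries and 25 in WT replicate 2 alone. The 7 constant loci were the promoters of Dnmt1, Uhrf1, Tet2 and an upstream start of Tet3, and 3 regions of Dnmt3a. A single locus was found in both Dido1∆E16 libraries and in neither WT library, 24723 bases before Dnmt3a (chr12:3781513-3781800), with scores above 45.1% and 90.2% of the peaks of the respective library. At the Dnmt1 promoter (chr9:20952451-20953287) the score ranked at the 49.3, 93.1, 51.2 and 51.2 percentile of its library, with WT replicate 2 standing apart from the other 3. At the Tet2 promoter (chr3:133543858-133545395) it ranked at 89.0, 94.1, 92.8 and 89.2, high in each. The Uhrf1 promoter locus (chr17:56303114-56304622) ranked at 65.0, 62.8, 69.9 and 33.4.

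Regions open in both WT libraries were examined next. There were 19 at the 7 genes, and 6 of them (31.6%) met no peak of either Dido1∆E16 library, beside 43.7% of 26327 such regions genome-wide. By class, 2 of 7 promoter regions and 4 of 12 regions outside promoters had none, against 15% and 60.6% of all such regions. With HOMER peaks the count was 3 of 20, against 29.3%. By class it was 0 of 6 promoter regions and 3 of 14 outside promoters, against 7.96% and 42.3%. By gene it was 2 of 7 at Dnmt3a and 0 of 1 at Tet1, so the missing promoter peaks held for MACS2 alone. The 6 regions without a Dido1∆E16 MACS2 peak lay at Dnmt3a (3), Tet2 (2) and Tet1 (1). Each of the regions of Dnmt1, Uhrf1 and Tet3 met a peak of at least 1 Dido1∆E16 library.

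At Dnmt3a, the 3 regions were the outer promoter (chr12:3806237-3806488, just before the start of a short transcript at 3806523), a region in intron 4 (chr12:3868533-3868910) and a region in intron 6 (chr12:3892820-3892996) that lies close behind the inner start and overlaps an exon of the predicted gene Gm31623. The Tet1 region (chr10:62865229-62865614) contains the start of the shorter Tet1 transcript described above. Another Tet1 locus (chr10:62886876-62887451), at an upstream RefSeq start, was open in WT replicate 2 and Dido1∆E16 replicate 2. At Tet2, the regions lay 210103 bases before the start (chr3:133754971-133755265) and just behind the 3′ end (chr3:133463279-133463478). The peaks behind these regions ranked in the lower or middle part of the WT lists at Dnmt3a (45.2 and 56.3 percentile at the outer promoter, 47.3 and 59.7 in intron 4, 49.3 and 19.8 in intron 6), whereas the 3 kept regions of Dnmt3a ranked at 82.2 to 98.3 in WT. The other lost regions did not all rank low. In WT replicates 1 and 2 they ranked at 76.45 and 70.04 (distal Tet2), 15.85 and 58.92 (behind Tet2), and 38.56 and 82.93 (Tet1).

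The sequences of 3 Dnmt3a regions outside exons, and of the distal Tet2 region, are shown to compare kept and lost regions in their CpG, the substrate of these enzymes, which is in capitals. All are on the plus strand of GRCm38.p6, and regions over 300 bases are shown by their central 300. A line marked open in WT alone had a MACS2 peak in both WT libraries and in neither Dido1∆E16 library. They are chr12:3791812-3792111, chr12:3855915-3856214, chr12:3868572-3868871 and chr3:133754971-133755265, in the order of the lines.
Dnmt3a upstream, open in all 4 libraries: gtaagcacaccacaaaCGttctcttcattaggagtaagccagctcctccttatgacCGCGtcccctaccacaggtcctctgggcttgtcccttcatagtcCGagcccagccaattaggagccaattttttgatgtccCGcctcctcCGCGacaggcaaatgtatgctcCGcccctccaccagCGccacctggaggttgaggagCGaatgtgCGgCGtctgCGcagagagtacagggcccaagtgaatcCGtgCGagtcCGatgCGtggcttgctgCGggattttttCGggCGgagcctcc
Dnmt3a intron 3, open in all 4 libraries: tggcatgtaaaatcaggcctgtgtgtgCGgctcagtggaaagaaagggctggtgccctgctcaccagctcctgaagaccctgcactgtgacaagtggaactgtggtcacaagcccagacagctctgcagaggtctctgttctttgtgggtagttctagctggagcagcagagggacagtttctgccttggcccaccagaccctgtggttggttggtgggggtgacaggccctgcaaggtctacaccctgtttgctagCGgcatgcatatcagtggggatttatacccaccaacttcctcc
Dnmt3a intron 4, open in WT alone: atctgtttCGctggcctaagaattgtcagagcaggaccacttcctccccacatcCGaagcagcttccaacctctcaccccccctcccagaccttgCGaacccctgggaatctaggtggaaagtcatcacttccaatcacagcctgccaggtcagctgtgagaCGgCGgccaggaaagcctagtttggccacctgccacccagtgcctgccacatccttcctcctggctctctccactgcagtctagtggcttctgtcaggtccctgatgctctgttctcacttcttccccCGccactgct
Tet2 upstream, open in WT alone: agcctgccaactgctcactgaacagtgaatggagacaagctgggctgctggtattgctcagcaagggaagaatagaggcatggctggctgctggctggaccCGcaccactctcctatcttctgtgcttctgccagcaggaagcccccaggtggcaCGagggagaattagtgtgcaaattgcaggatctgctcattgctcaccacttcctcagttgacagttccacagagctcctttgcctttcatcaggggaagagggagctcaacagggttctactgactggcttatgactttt
The 4 stretches hold 20, 2, 6 and 2 CpG in that order. Kept regions thus ran from few to many CpG. In the central 200 bases, regions outside promoters had a median of 4 CpG where a Dido1∆E16 peak was present (6535 regions) and 3 where it was not (10037 regions), and promoters had 17 (8292) and 13 (1463). The Tet1 region, with 3 CpG, had fewer than most promoter regions (2.84% had still fewer). The Tet2 promoter, with 43, had more than 99.959% of them.

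The study's lists of differential regions give normalised tags per library on a log2 scale. They hold only regions that had passed the study's own test, and nearly all were lower in Dido1∆E16 (8534 of 8540 regions in the list with WT as target), so the values describe regions chosen for this difference. In that list 10 regions met a peak of the 7 genes, 1 at Dnmt1, 3 at Dnmt3a, 5 at Tet2 and 1 at Tet3, and in all 10 both Dido1∆E16 libraries were below both WT libraries. None lay at Uhrf1, Tet1 or Dnmt3b. At the Dnmt1 promoter (chr9:20952399-20953346) the log2 tags were 6.59 and 6.83 in WT and 5.91 and 5.88 in Dido1∆E16, a difference of -0.81. At the Tet2 promoter (chr3:133542967-133545633) they were 8.88, 8.81, 8.08 and 7.62, a difference of -0.99. Both promoters had a peak in all 4 libraries, so the list records a lower level there and not a missing peak.

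The intron 4 region of Dnmt3a with a MACS2 peak in WT alone (chr12:3868193-3868945) had log2 tags of 6.31 and 5.84 in WT. In Dido1∆E16 it had 4.88 and 4.93, a difference of -1.17, the largest of the 10. Intron 3 (chr12:3855445-3856549), open in all libraries, had 7.80, 7.88, 6.79 and 6.88, a difference of -1.0. The intron 4 region of Tet3 (chr6:83381581-83382187) had 6.69, 6.25, 5.22 and 5.54, a difference of -1.09. The 4 distal regions of Tet2 differed by -1.06 to -0.81. The distal Tet2 region with a peak in WT alone (chr3:133754155-133755343) had 7.05, 6.86, 6.02 and 5.77. Its missing peak in Dido1∆E16 was thus not a missing signal. LSK and pre-B cells are different populations from different libraries, so the lower tags at Dnmt1, Dnmt3a and Tet2 in LSK cells and the RNA of these genes in pre-B cells stand side by side and were not compared by a test.

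**Figure D5:**
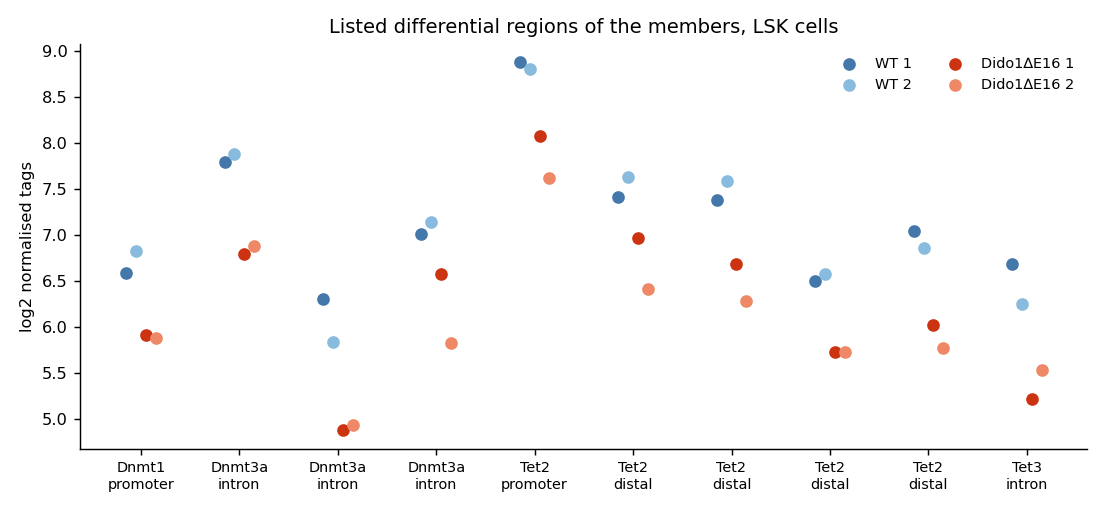
log2 normalised tags (vertical axis, not from 0) in the 4 LSK libraries at the 10 regions of the list with WT as target that met a peak of Dnmt1, Dnmt3a, Tet2 or Tet3 (horizontal axis, in order of position within a gene), with each point a library. In each region both Dido1∆E16 points lay below both WT points, by -1.17 to -0.81 between means, and the regions had been selected for such a difference.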

How the data were processed

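Sorted LSK cells (ATAC-seq) and sorted pre-B cells (RNA-seq) were each represented by 2 WT and 2 Dido1∆E16 libraries, 8 in all, grouped by their labels. Nothing in the labels ties replicate numbers to a litter or day, and p-values measure the spread between these pooled samples. The study's methods state 3 ATAC samples per genotype, and 2 were analysed here. The members and the gene lists were chosen with earlier results of these data known.

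The RNA files hold transcript structures from StringTie with coverage, FPKM and TPM as text, made by the authors after alignment with BWA (0.7.15 per the labels) to mm10. No read counts were used, so depth in reads is unknown. The authors' MACS2 and HOMER peaks were deposited per library, annotated with ChIPseeker, with the caller's score. The deposited differential regions give log2 normalised tags per library, and the fold and p columns of those lists and of the authors' edgeR table were not used.

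TPM was summed per gene, after blanks at the ends of symbols were removed. Members used only the transcript-symbol pairs of the deposited tables, and other genes used these and then GENCODE vM21 (at least 50% of exonic bases, same strand). Of 63753 transcripts, 56362 had a symbol. Genes with a mean of at least 1 TPM were tested with limma (3.58.1 in R 4.3.3, trend) on log2(TPM + 1), two-sided with Benjamini-Hochberg adjustment, with calls made below 0.05 where the log2 difference was 0.6 or more in size. Fold changes are on this log2(TPM + 1) scale, which understates changes of low genes. Scaled coverage is exon coverage multiplied by the TPM-to-coverage ratio of its library. The 5′ ratio used transcripts of at least 5000 bases and 10 TPM in each library, with whole exons making up at least 10% of the bases. Autosomal, X and Y peaks were counted by gene symbol, and regions were intersected with bedtools (2.31.1) at 1 base or more. Promoters and genome sequence came from RefSeq (GRCm38.p6), and all 7 genes matched. The limma script was tested on simulated data. Named in the text were all 7 members, Dido1, the 2 tested genes of each list with the largest change (in part), and the 3 nearest patterns of the most abundant writer and Tet enzyme (mean of at least 10 TPM). Pcna, Il2ra, Myc and the genes listed at 0 were added after their values were seen. Some items are not reported here.

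Alternatives were the pseudocount, the filter, median centring, FPKM, no trend, a replicate block, each library left out, the top transcript, HOMER peaks, equal numbers of best-scoring peaks, the better-scoring 50%, and an overlap of 50%. Replicates with the same number did not deviate together (r = 0.0506 across genes, which are not independent).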

Additional observations from a re-analysis of the deposited data

How the results depend on the processing

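With 2 libraries per group the RNA comparison has little power, and none of the 7 genes was called under any alternative run (adjusted p from limma 0.184 to 1). Over all genes, 3 were called higher and 3 lower. Both counts were 0 at a pseudocount of 0.1, without the filter, with the replicate block and without each library in turn (0 to 0), and were 74 and 13 without a trend. The numbers of the labels do not pair the samples, and the block left the sign of all 7 differences as it was. The sign of the log2 difference turned for Dnmt1 (-0.65) and Uhrf1 (-0.68) without WT replicate 2, for Uhrf1 with its top transcript alone (-0.343), and for Tet3 after median centring (-0.0565), without WT replicate 2 (-0.19) and without Dido1∆E16 replicate 1 (-0.03). Left-out libraries gave -0.65 to 1.47 for Dnmt1, -0.68 to 1.36 for Uhrf1, -0.19 to 0.24 for Tet3, 0.41 to 0.69 for Dnmt3a, 0.45 to 0.66 for Tet1 and -0.44 to -0.07 for Tet2. Of 84 alternative values of the members 78 kept their sign. An assignment that adds GENCODE transcripts to the members was chosen after seeing the data and turned no sign. The number of genes with fewer peaks in both Dido1∆E16 libraries (3) was 0 with HOMER peaks and 0 with equal numbers of best-scoring peaks, and 3 to 6 when a library was left out, with 6 without WT replicate 1. Shared regions without a Dido1∆E16 peak (6) numbered 3 with HOMER peaks, and 6 at an overlap of 50%.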
